A study of Homo sapiens with 5 samples.

Results

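The genes INHBA, INHBB, FST, TGFBR3, ID1, ID2, ID3, SMAD7 and BAMBI encode activin subunits, an activin antagonist, a co-receptor, SMAD target genes and inhibitors of activin, TGF-β and BMP signalling. They were taken as the rows of the authors' deposited table whose symbol column holds one of these names, which gave 9 of the 27477 genes in that table. All 9 had an adjusted p and so passed the authors' filter on low levels. The genes were chosen by their role with their deposited fold changes and adjusted p already known, so their values in this comparison are a description.

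RNA sequencing compared drug-tolerant with parental cells of PC9, an established human lung adenocarcinoma line that depends on a mutant epidermal growth factor receptor (EGFR). The 2 drug-tolerant libraries came from cells that survived 6 days of gefitinib, a drug that inhibits the EGFR kinase, at 50 nM, and then spent 3 days in growth medium. The 3 parental libraries are titled as parental PC9, and no treatment of their own is given for them. The labels attach the same treatment text to every library and do not say whether libraries of a group came from separate cultures, so the spread behind each p-value is that between libraries and may be technical. All values come from a single cell line, and fewer cells expressing a gene and less RNA per cell cannot be told apart in these bulk libraries.

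Activins are secreted dimers of inhibin beta subunits, βA from INHBA and βB from INHBB. They bind the type II receptors ACVR2A and ACVR2B, which recruit type I receptors such as ACVR1B and lead to phosphorylation of SMAD2 and SMAD3. Bone morphogenetic proteins (BMPs) act through BMPR2 with BMPR1A or ACVR1 on SMAD1, SMAD5 and SMAD9, and SMAD4 partners with both SMAD branches. Among the best known direct targets of the BMP branch are the ID genes, whose proteins bind E proteins such as TCF3 and keep them off DNA. Both branches also switch on their own inhibitors, SMAD7 among them. INHBA is known to be expressed at high levels in a share of lung adenocarcinomas.

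Reads per library were recovered from the deposited means, fold changes and standard errors, and were divided by each library's size factor; these are the normalised reads given here. The libraries are called drug-tolerant A and B and parental A, B and C in the order of their size factors, because they could not be matched to replicate numbers. Depth was estimated as the size factor times the sum of the deposited means, and was not summed from reads. It was about 20.4 and 14.2 M reads in drug-tolerant A and B, against 21.4, 18.3 and 17.3 M in parental A, B and C. Parental A stood apart from parental B and C. Over 8711 genes with a mean of 30 to 1000, the 5th to 95th percentile of the log2 ratio ran from -1.25 to 1.49 between parental A and the mean of parental B and C, against -0.29 to 0.31 between parental B and C. The drug-tolerant libraries lay closer to parental A, with percentiles of -0.61 and 0.53, than to the mean of parental B and C, with percentiles of -1.19 and 1.44. The ratio of parental A to parental B and C followed transcript length, with a median of -0.82 over 1570 genes with transcripts under 2000 nt and 0.51 over 2949 genes with transcripts over 4000 nt. Epithelial markers were abundant, with means in the authors' deposited table of 35758 for KRT8 and 8755 for EPCAM, while NKX2-1, a lung lineage factor, was at 2.83. Of the blood cell markers, CD14 and CD68 had means of 3.65 and 2.82 in the authors' deposited table. The fibroblast marker COL1A1 had a mean of 162 and PDGFRB 0.353, and the endothelial marker CDH5 had 253, VWF 6.61 and CLDN5 2.89 in the authors' deposited table. Of these blood cell, fibroblast and endothelial markers, COL1A1 and CDH5 had an adjusted p. Of the 2, 0 were called, where 0.552% of the 15223 genes with an adjusted p were called.

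Promoter sequences are shown for the genes that the comparison turns on. INHBA and TGFBR3 were called and lay beyond all parental libraries by a wide margin, and ID1 and ID3 moved together across the libraries. Each sequence runs 5′ to 3′ on the gene's strand from 250 bases before to 50 bases after a RefSeq start in GRCh38.p14. The windows are chr7:41703041-41703340 on the minus strand for INHBA, chr1:91886102-91886401 on the minus strand for TGFBR3, chr20:31605039-31605338 on the plus strand for ID1 and chr1:23559452-23559751 on the minus strand for ID3. Capitals mark GTCT or its complement AGAC, the core of the SMAD-binding element, and GGCGC or its complement GCGCC, a GC-rich SMAD motif.
INHBA: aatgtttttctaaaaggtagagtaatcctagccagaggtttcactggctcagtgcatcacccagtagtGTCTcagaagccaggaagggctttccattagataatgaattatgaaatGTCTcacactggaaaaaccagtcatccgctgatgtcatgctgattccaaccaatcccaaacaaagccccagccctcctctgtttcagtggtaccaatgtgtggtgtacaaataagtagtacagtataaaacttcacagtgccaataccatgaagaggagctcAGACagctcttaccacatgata
TGFBR3: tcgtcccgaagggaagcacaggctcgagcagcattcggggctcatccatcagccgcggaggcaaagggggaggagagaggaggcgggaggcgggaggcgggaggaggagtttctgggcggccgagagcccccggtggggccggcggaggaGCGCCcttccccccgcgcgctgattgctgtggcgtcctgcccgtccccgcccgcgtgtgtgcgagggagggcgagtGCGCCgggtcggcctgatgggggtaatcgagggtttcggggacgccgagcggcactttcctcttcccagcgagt
ID1: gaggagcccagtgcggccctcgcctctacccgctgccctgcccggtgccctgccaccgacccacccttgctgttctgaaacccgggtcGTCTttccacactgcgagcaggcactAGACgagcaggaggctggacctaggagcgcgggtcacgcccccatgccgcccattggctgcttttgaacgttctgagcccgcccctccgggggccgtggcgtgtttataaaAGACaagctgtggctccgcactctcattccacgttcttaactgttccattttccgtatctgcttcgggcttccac
ID3: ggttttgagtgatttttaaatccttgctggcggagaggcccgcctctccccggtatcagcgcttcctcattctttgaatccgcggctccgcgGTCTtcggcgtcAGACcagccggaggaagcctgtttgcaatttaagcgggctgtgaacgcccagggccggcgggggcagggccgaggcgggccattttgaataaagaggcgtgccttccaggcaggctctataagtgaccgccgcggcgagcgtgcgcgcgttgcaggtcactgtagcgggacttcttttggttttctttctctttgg
The INHBA window held 3 GTCT sites on either strand, ID1 held 3 and ID3 held 2, while TGFBR3 held 0 GTCT and 2 GGCGC sites. All 9 genes matched a window, SMAD7 with 3 of them. The other windows held between 1 and 5 GTCT sites, and GGCGC was found 13 times in INHBB and 10 times in BAMBI. These letters are common: GTCT was present in 84.0% and GGCGC in 48.6% of all 35116 RefSeq windows of this length. The TATAAA box sequence, held by 11.5% of windows, occurred in the windows of INHBA and ID1 and in 1 of the SMAD7 windows. The best known BMP-responsive region of ID1 lies further upstream than this window.

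INHBA fell and TGFBR3 rose in drug-tolerant cells, and for both genes the 2 drug-tolerant libraries lay beyond all 3 parental libraries by a wide margin. ID3 fell as well, but most of that difference, and nearly all of the one in ID1, was against parental B and C. INHBB, FST, SMAD7 and BAMBI had values below those of all parental libraries by smaller steps and were not called, and ID2 was barely detected. Of the 9 genes, 3 were called at an adjusted p under 0.05 in the authors' deposited table (DESeq2), 1 higher and 2 lower, where 0.552% of the 15223 genes with an adjusted p were called. The genes nearest to the threshold on each side were ID3, at an adjusted p of 0.048, and ID1, at 0.272, in the authors' deposited table.

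**Figure D1:**
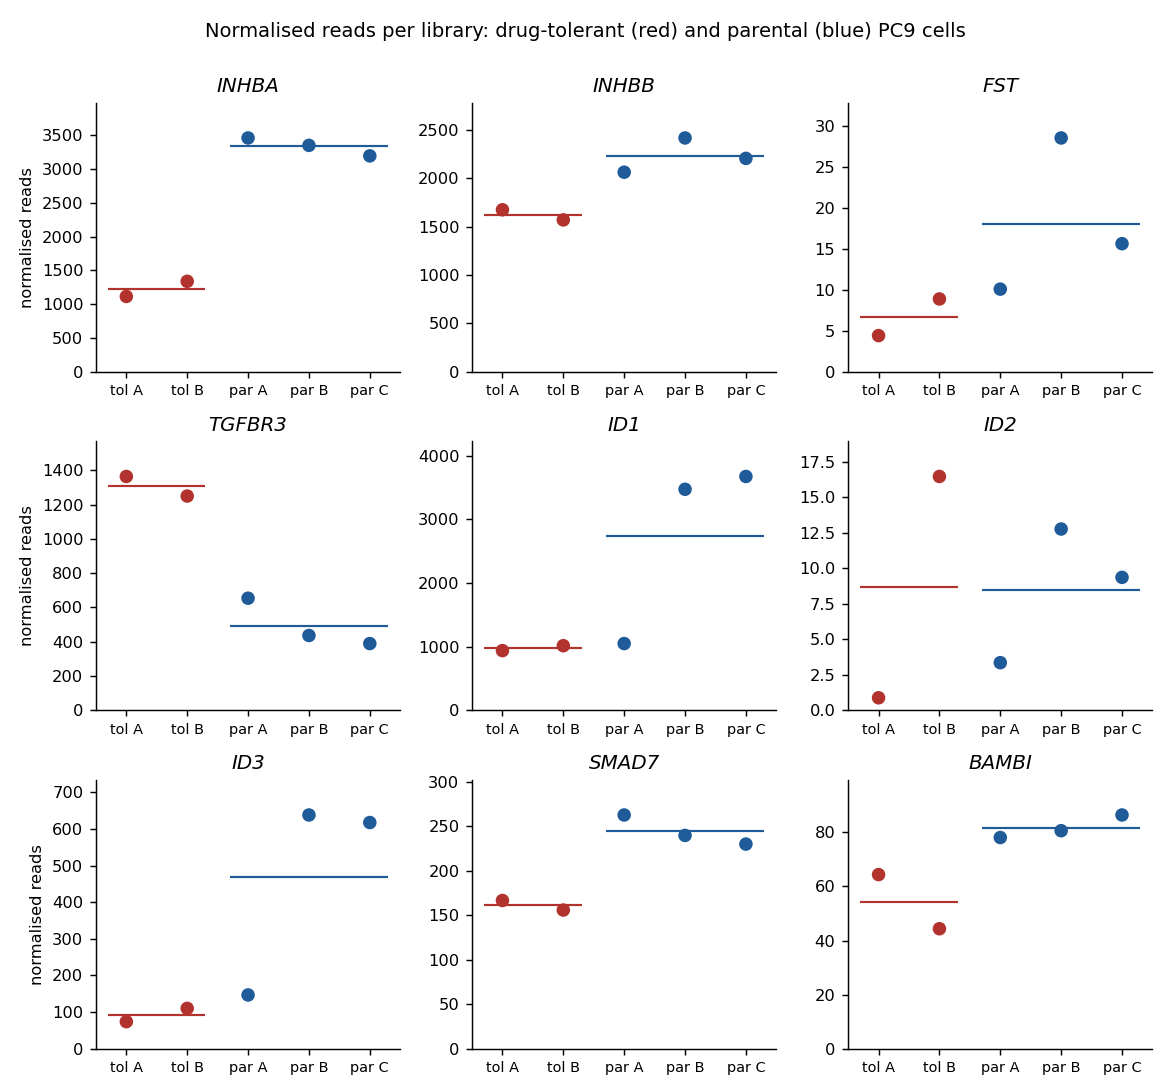
Normalised reads of the 9 genes in each library, drug-tolerant A and B (red) left of parental A, B and C (blue), with each axis starting at 0 and a horizontal line at each group's mean. INHBA lies between 1115 and 1339 in the drug-tolerant libraries and between 3195 and 3460 in the parental libraries, whereas in ID1 the value of parental A, 1049, lies next to the drug-tolerant values of 938 and 1015.

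INHBA, the gene of the activin βA subunit, lies on chromosome 7 (41667168 to 41705834, minus strand, GRCh38; ENSG00000122641) and was the gene with the smallest adjusted p of the 9. It had 1115 and 1339 normalised reads in drug-tolerant A and B, against 3460, 3350 and 3195 in parental A, B and C. All parental values were far above both drug-tolerant values, and the parental libraries lay close to each other. The group means were 1227 ± 158 in drug-tolerant cells (SD, n = 2) and 3335 ± 133 in parental cells (SD, n = 3). The authors' deposited table gives a log2 fold change of -1.33 ± 0.22 (SE), a 95% interval of -1.76 to -0.90 and an adjusted p of 9.72e-06 (DESeq2). The call was lost with the Wald score centred and scaled, at an adjusted p of 0.454, and with limma on the recovered reads, at 0.324; over all alternatives the adjusted p ran from 1.76e-11, with limma without parental A, to 0.819, with limma without drug-tolerant B. The deposited fold changes are moderated towards 0, and the log2 ratio of the means of normalised reads was -1.44. It was -1.50 against parental A alone and -1.42 against parental B and C, and so of like size against both. Among the 8711 genes with a mean of 30 to 1000, 15 or 0.172% were as far below parental A as INHBA, whose own mean of 2492 lies above that range. INHBA overlaps the antisense gene INHBA-AS1, which the authors' deposited table lists at a mean of 10.9, with a fold change of -0.42 ± 0.41 (log2, SE). The strand setting of the counting is not given in the sources used here, and the mean of INHBA-AS1 is far below that of INHBA.

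INHBB encodes the activin βB subunit and lies on chromosome 2 (120346143 to 120351808, plus strand; ENSG00000163083). It had 1673 and 1568 normalised reads in drug-tolerant A and B, against 2061, 2415 and 2204 in parental A, B and C. Both drug-tolerant values were below every parental value, by a smaller step than in INHBA. The authors' deposited table gives a log2 fold change of -0.42 ± 0.22 (SE), with an unadjusted p of 0.0494 and an adjusted p of 0.461 (DESeq2), so INHBB was not called. Its log2 ratio was -0.35 against parental A and -0.51 against parental B and C. Scaled per kb of the longest protein-coding transcript, INHBB averaged 506 ± 23.1 normalised reads per kb in drug-tolerant cells (SD, n = 2) and 695 ± 55.6 in parental cells (SD, n = 3). INHBA averaged 202 ± 26.1 per kb in drug-tolerant cells and 550 ± 22.0 in parental cells on the same scale. The level of INHBB per kb was thus above that of INHBA in both groups, and the 2 subunit genes lay further apart in drug-tolerant cells.

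FST encodes follistatin, a secreted protein that binds activins and blocks their receptor contact, and lies on chromosome 5 (53480409 to 53487134, plus strand; ENSG00000134363). Only 5 and 7 reads were counted in drug-tolerant A and B, against 12, 29 and 15 in parental A, B and C. In normalised reads these are 4.41 and 8.87 in drug-tolerant cells, against 10.1, 28.5 and 15.6 in parental cells. The groups did not overlap, but drug-tolerant B and parental A differed by little more than 1 normalised read. The authors' deposited table holds a log2 fold change of -0.69 ± 0.41 (SE) at an adjusted p of 0.503 (DESeq2), so FST was not called.

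TGFBR3 encodes betaglycan, a membrane co-receptor that presents TGF-β2 to its receptors and binds inhibins, and it lies on chromosome 1 (91680343 to 91906335, minus strand; ENSG00000069702). It had 1364 and 1250 normalised reads in drug-tolerant A and B, against 654, 436 and 389 in parental A, B and C. Both drug-tolerant libraries were well above the highest parental library, which was parental A. The means were 1307 ± 80.8 in drug-tolerant cells (SD, n = 2) and 493 ± 141 in parental cells (SD, n = 3). The authors' deposited table gives a log2 fold change of 1.21 ± 0.29 (SE), a 95% interval of 0.64 to 1.77 and an adjusted p of 0.0103 (DESeq2). The log2 ratio was 0.999 against parental A and 1.66 against parental B and C. As many as 273 of the 8711 genes (3.13%) were as far above parental B and C, but 68 (0.781%) were as far above parental A. TGFBR3 has a long transcript of 6465 nt. Transcripts over 4000 nt had higher values in parental A than in parental B and C, with a median log2 ratio of 0.51. The ratio of drug-tolerant cells to parental B and C was not split by length. Trends with transcript length and GC content over all tested protein-coding genes were removed from the log2 fold change and, separately, from the Wald score. The log2 value of TGFBR3 was then 0.98, and its adjusted p from the Wald score was 0.0707, which is no longer a call. Over all alternatives its adjusted p ran from 1.3e-11, with limma without parental A, to 0.971, with the Wald score centred and scaled.

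ID1 encodes a helix-loop-helix protein without a DNA-binding region and lies on chromosome 20 (31605283 to 31606515, plus strand; ENSG00000125968). It had 938 and 1015 normalised reads in drug-tolerant A and B, against 1049, 3475 and 3677 in parental A, B and C. The groups did not overlap, yet parental A lay next to drug-tolerant B and far below parental B and C. The means were 977 ± 54.6 in drug-tolerant cells (SD, n = 2) and 2734 ± 1462 in parental cells (SD, n = 3). The authors' deposited table gives a log2 fold change of -1.03 ± 0.37 (SE), with an unadjusted p of 0.00579 and an adjusted p of 0.272 (DESeq2). The log2 ratio was -0.10 against parental A and -1.87 against parental B and C. Of the 8711 genes with a mean of 30 to 1000, 2863 (32.9%) were as far below parental A, and 27 (0.31%) as far below parental B and C, while the mean of ID1 itself, 2031, lies above that range.

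ID3, a close relative of ID1, lies on chromosome 1 (23557918 to 23559794, minus strand; ENSG00000117318). It had 74.1 and 110 normalised reads in drug-tolerant A and B, against 147, 638 and 617 in parental A, B and C. Drug-tolerant values were the lowest, parental A was a little above them, and parental B and C stood far above parental A. The means were 92.2 ± 25.6 in drug-tolerant cells (SD, n = 2) and 467 ± 278 in parental cells (SD, n = 3). The authors' deposited table gives a log2 fold change of -1.44 ± 0.39 (SE), a 95% interval of -2.22 to -0.67 and an adjusted p of 0.048 (DESeq2). The log2 ratio was -0.67 against parental A and -2.76 against parental B and C. Only 2 of the 8711 genes, ID3 included, were as far below parental B and C, while 360 (4.13%) were as far below parental A. With the trend with length and GC content removed, the log2 value was -1.07 with an adjusted p of 0.373. Over all alternatives the adjusted p of ID3 ran from 3.67e-11 to 0.971, under the same settings as for TGFBR3.

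The split of the parental libraries placed ID1 and ID3 in the lower tail of genes of their length. The log2 ratio of parental A to parental B and C was -1.77 in ID1 and -2.09 in ID3, whose longest protein-coding transcripts are 1233 and 1251 nt. Over 515 genes with transcripts of 1000 to 1500 nt, the median of this ratio was -0.93 and the 1st percentile -1.66. Of all 8711 genes, 47 (0.54%) had a ratio at or below that of ID1 and 10 (0.115%) at or below that of ID3. The part of this split in the ID1 and ID3 differences was not tested, since it leaves a single library, parental A, on one side.

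**Figure D2:**
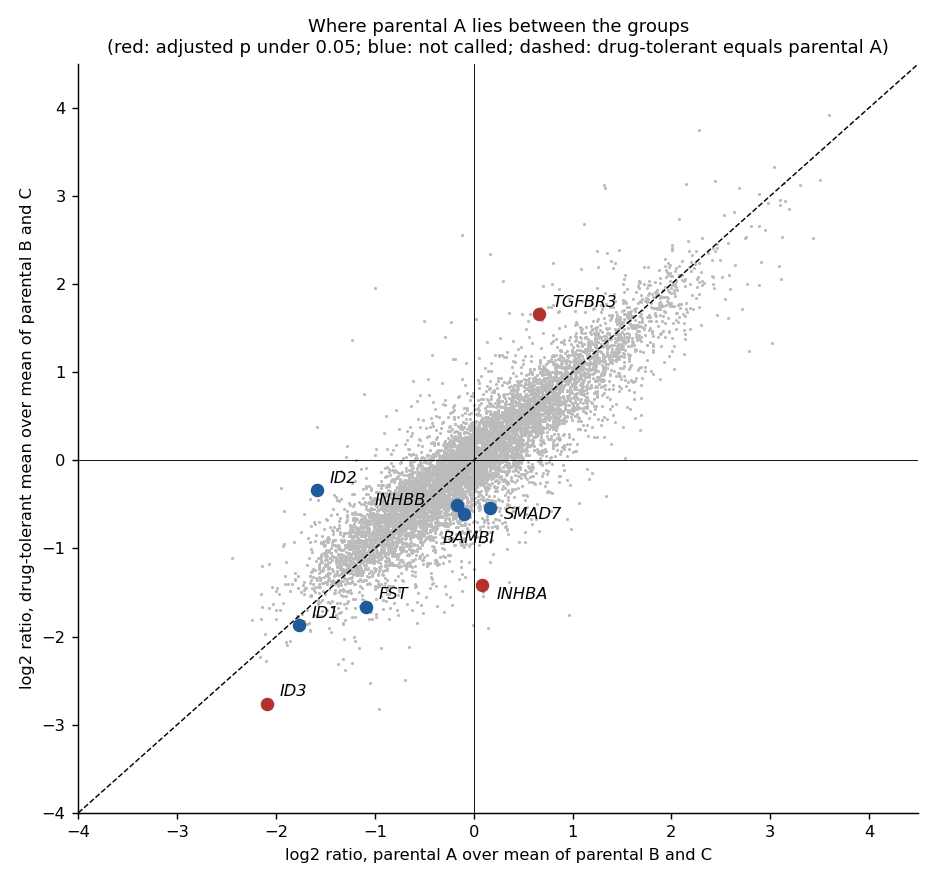
Each point is a gene: the x axis is the log2 ratio of normalised reads of parental A over the mean of parental B and C, and the y axis the log2 ratio of the drug-tolerant mean over the same mean (grey, 8711 genes with a mean of 30 to 1000; red, described genes with an adjusted p under 0.05; blue, the other described genes). Both axes share parental B and C; on the dashed line drug-tolerant cells equal parental A, and ID1 lies close to it at -1.77 and -1.87, whereas INHBA (0.08 and -1.42) and TGFBR3 (0.66 and 1.66) lie away from it.

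**Figure D3:**
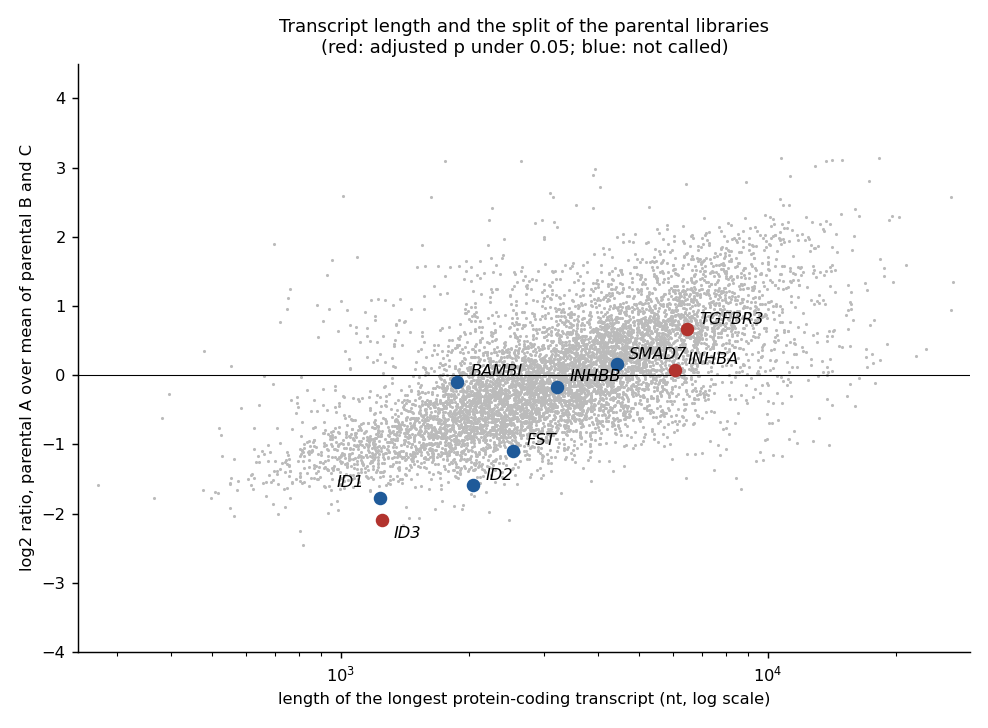
The log2 ratio of parental A over the mean of parental B and C (y axis) against the length of the longest protein-coding transcript in nt (x axis, log scale), for protein-coding genes with a mean of 30 to 1000 (grey) and for the 9 described genes (red, adjusted p under 0.05; blue, not called). ID1 and ID3, at -1.77 and -2.09, lie at the lower edge of genes of their length, and INHBA, at 0.08 and 6064 nt, lies near 0.

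ID2, a further ID gene, lies on chromosome 2 (8678845 to 8684453, plus strand; ENSG00000115738) and was counted in 1 and 13 reads in drug-tolerant A and B, against 4, 13 and 9 reads in parental A, B and C. In normalised reads these are 0.882 and 16.5 in drug-tolerant cells, against 3.36, 12.8 and 9.37 in parental cells. The 2 drug-tolerant libraries were the lowest and the highest of the 5, so the groups overlapped completely. The authors' deposited table holds a log2 fold change of 0.001 ± 0.38 (SE) at an adjusted p of 0.999 (DESeq2). ID4 had a mean of 2.69 and no adjusted p in the authors' deposited table, and ID1 and ID3 were the ID genes with a sizeable level in this line.

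SMAD7 is an inhibitory SMAD that blocks type I receptors and is itself a SMAD target, and it lies on chromosome 18 (48919853 to 48952052, minus strand; ENSG00000101665). It had 167 and 156 normalised reads in drug-tolerant A and B, against 263, 240 and 230 in parental A, B and C. Both drug-tolerant values were below all parental values, and parental A was the highest library. The authors' deposited table gives a log2 fold change of -0.54 ± 0.25 (SE), with an unadjusted p of 0.0323 and an adjusted p of 0.449 (DESeq2). The log2 ratio was -0.70 against parental A and -0.54 against parental B and C.

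BAMBI encodes a decoy receptor that resembles type I receptors but lacks their kinase, and it lies on chromosome 10 (28677342 to 28682939, plus strand; ENSG00000095739). It had 64.4 and 44.4 normalised reads in drug-tolerant A and B, against 78.1, 80.6 and 86.4 in parental A, B and C. The groups did not overlap, and the 2 drug-tolerant libraries differed from each other more than the parental libraries did. The authors' deposited table holds a log2 fold change of -0.47 ± 0.32 (SE) at an adjusted p of 0.519 (DESeq2).

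In all, 8 of the 9 genes had groups that did not overlap, 7 lower and 1 higher in drug-tolerant cells. Of 11218 tested genes with recovered reads and a mean up to 1000, 35.6% did so, 17.3% lower and 18.3% higher. INHBA, INHBB and ID1 have means above that range. Parental A was nearer on the log2 scale to the drug-tolerant mean than to the mean of parental B and C in 4 of the 9 genes, ID1, ID2, ID3 and FST, against 77.9% of the 8711 genes. Those 8711 genes have means of 30 to 1000, whereas FST and ID2 lie below that range, with means of 13.5 and 8.57, and INHBA, INHBB and ID1 above it. The drug-tolerant mean of ID2 averages 0.882 and 16.5 normalised reads. INHBA, INHBB, TGFBR3, SMAD7 and BAMBI had parental A nearer to the other parental libraries. Without parental A, limma on the recovered reads called 8 of the 9 genes, all but ID2, but it then called 67.7% of all 11238 genes tested. With all 5 libraries, limma called 0 of the 9 genes and 0 of all 11238 genes, and 6 of the 9 had an unadjusted p under 0.05, as did 12.2% of all genes in that fit.

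Per kb of transcript, the order of the levels differed between the groups. In drug-tolerant cells ID1 came first with 792 ± 44.2 normalised reads per kb (SD, n = 2), followed by INHBB at 506 ± 23.1. INHBA at 202 ± 26.1 and TGFBR3 at 202 ± 12.5 followed and did not differ beyond their spread. ID3 had 73.7 ± 20.5, SMAD7 36.4 ± 1.72 and BAMBI 28.97 ± 7.54 per kb in drug-tolerant cells, and SMAD7 lay within 1 SD of BAMBI. ID2 at 4.25 ± 5.40 and FST at 2.62 ± 1.24 per kb closed the order and overlapped. In parental cells ID1 had 2217 ± 1186 per kb (SD, n = 3), INHBB 695 ± 55.6, INHBA 550 ± 22.0 and ID3 374 ± 222, and TGFBR3 followed at 76.3 ± 21.8. SMAD7 at 55.1 ± 3.79, BAMBI at 43.5 ± 2.28, FST at 7.12 ± 3.73 and ID2 at 4.17 ± 2.34 per kb came last in parental cells. Among neighbours in this order, INHBA lay within 1 SD of ID3, TGFBR3 within 1 SD of SMAD7 and FST within 1 SD of ID2, by the larger SD of each pair. TGFBR3 was thus below ID3 in every parental library and above it in both drug-tolerant libraries. Their transcripts have 6465 and 1251 nt, and the ratio of parental A to parental B and C followed transcript length. Scaling per kb leaves the ratios between libraries unchanged, and the part of length in this change of order was not tested. In parental A alone the values per kb were 117 for ID3 and 101 for TGFBR3.

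The other genes of the pathway were taken from lists by role, of which 87 genes outside the 9 had a row and 68 an adjusted p. A further 20 genes of these lists were not analysed here. Of the 68 genes with an adjusted p, 0 were called in the authors' deposited table (DESeq2), where 0.552% of all 15223 genes were called. The same small share applies to the counts of calls by list below. An unadjusted p under 0.05 was found in 5 of the 68 genes, 2 higher and 3 lower, where 10.8% of all tested genes had one. Their median log2 fold change was -0.06, against -0.02 over all 15223 genes tested. Of the 68, 40 had a negative fold change, where 7851 of the 15223 genes did so. In the recovered reads 18 of 61 of these genes had groups that did not overlap, 5 higher and 13 lower in drug-tolerant cells. Of 11218 genes with a mean up to 1000, 35.6% did so, 18.3% higher and 17.3% lower. Some of the 61 genes, such as NOG, have means above 1000. The 5 genes with an unadjusted p under 0.05 were PCSK5 and RGMA, with positive fold changes, and NOG, PMEPA1 and FKBP1A, with negative ones.

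**Figure D4:**
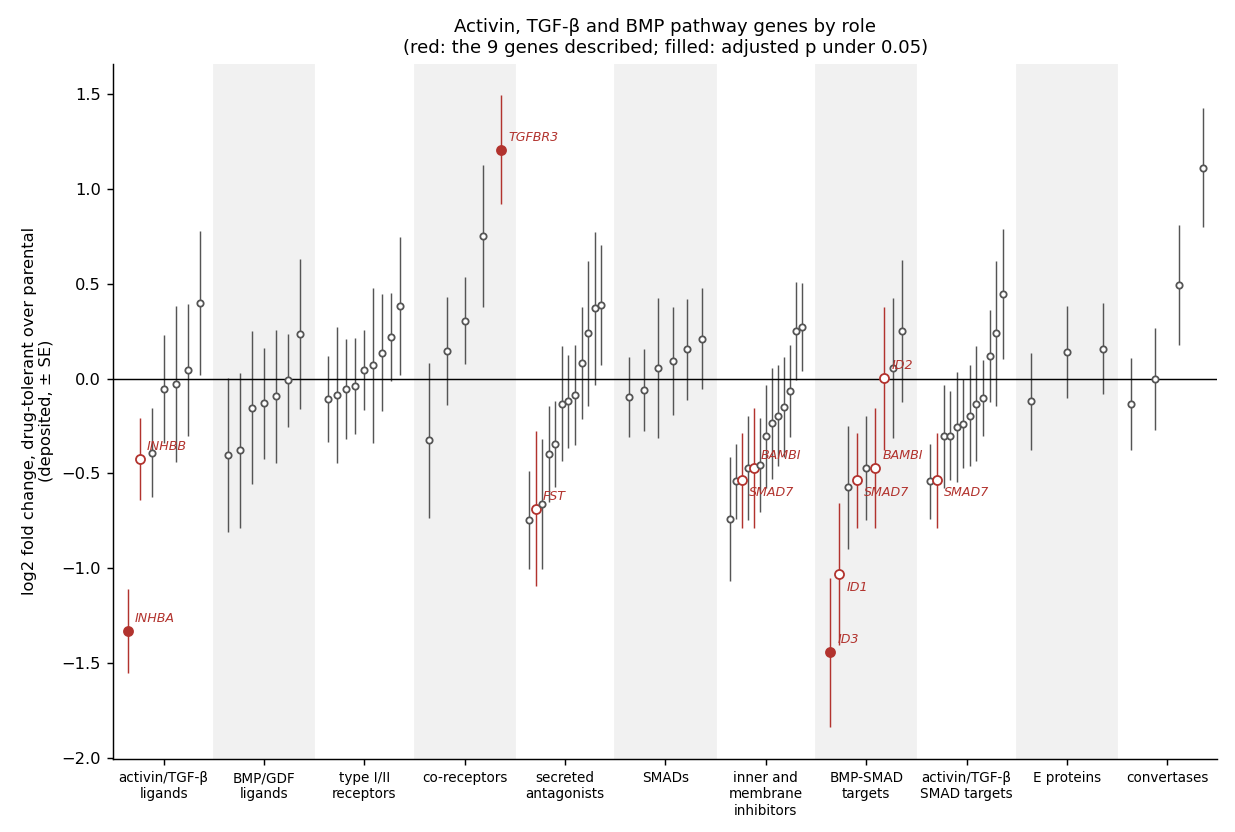
Deposited log2 fold change, drug-tolerant over parental, with SE bars, for every gene of the pathway lists with an adjusted p, in columns by role and sorted within a column. The 9 described genes are red and named, a gene of several lists appears in each, and filled points mark an adjusted p under 0.05: INHBA at -1.33, ID3 at -1.44 and TGFBR3 at 1.21.

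Among the other activin and TGF-β type ligands, 0 of 5 tested genes were called and the median log2 fold change was -0.03. TGFB1 had 486 and 473 normalised reads in drug-tolerant A and B, against 564, 687 and 688 in parental A, B and C, with -0.39 ± 0.23 (log2 fold change, SE) in the authors' deposited table. TGFB2, the ligand that depends most on betaglycan, had 451 and 418 normalised reads in drug-tolerant cells, against 665, 296 and 291 in parental cells, so its groups overlapped. INHA, the inhibin α subunit, had 17.6 and 6.34 normalised reads in drug-tolerant cells, against 11.8, 9.83 and 16.7 in parental cells. The subunit genes INHBC and INHBE had means of 0.914 and 1.24 in the authors' deposited table and no adjusted p. INHBA and INHBB were the activin subunit genes with a sizeable level.

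Of the BMP and GDF ligands 0 of 7 tested genes were called. A negative log2 fold change was found in 6 of the 7, with a median of -0.13, where 7851 of all 15223 genes were negative. BMP4 had 335 and 306 normalised reads in drug-tolerant A and B, against 290, 319 and 358 in parental A, B and C, and its log2 fold change was -0.008 ± 0.25 (SE) in the authors' deposited table. BMP6 had 92.6 and 114 normalised reads in drug-tolerant cells, against 115, 129 and 99.9 in parental cells. In both of these BMP ligands the groups overlapped.

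Of the type I and II receptors 0 of 9 tested genes were called, and their log2 fold changes ran from -0.11 to 0.38. BMPR1A had 842 and 856 normalised reads in drug-tolerant A and B, against 782, 844 and 835 in parental A, B and C. The activin type I receptor gene ACVR1B had 437 and 390 in drug-tolerant cells, against 428, 459 and 460 in parental cells. BMPR2 had 964 and 927 normalised reads in drug-tolerant cells, against 1117, 454 and 406 in parental cells, which again set parental A beside the drug-tolerant libraries. TGFBR2 had 0.14 ± 0.31 (log2 fold change, SE) in the authors' deposited table, but reads per library were not resolved. TGFBR1, the tested receptor gene of the highest mean, had 0.22 ± 0.23 and ACVR2B had -0.09 ± 0.36 (log2 fold change, SE) there.

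Among the co-receptors other than TGFBR3, 0 of 4 tested genes were called and 3 had a positive fold change, as did 7372 of all 15223 genes. Endoglin (ENG), which like betaglycan binds TGF-β family ligands beside the signalling receptors, had 393 and 449 normalised reads in drug-tolerant A and B, against 341, 324 and 335 in parental A, B and C. Its log2 fold change was 0.31 ± 0.23 (SE) in the authors' deposited table. RGMB and TGFBR3L had log2 fold changes of 0.15 and -0.32 in the authors' deposited table, and their groups overlapped. RGMA, a BMP co-receptor, had 44.98 and 40.6 normalised reads in drug-tolerant cells, against 20.1, 26.5 and 14.6 in parental cells, and the log2 fold change was 0.75 ± 0.37 (SE) in the authors' deposited table, at an adjusted p of 0.458 (DESeq2).

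Among secreted antagonists and binding proteins other than FST, 0 of 11 tested genes were called. A negative fold change was found in 7, where 7851 of all 15223 genes were negative. NOG, whose product noggin binds BMPs and keeps them from their receptors, had 742 and 682 normalised reads in drug-tolerant A and B, against 998, 1410 and 1419 in parental A, B and C. Its log2 fold change was -0.75 ± 0.26 (SE) in the authors' deposited table, at an adjusted p of 0.227 (DESeq2). TWSG1, a BMP-binding protein, had 1377 and 1310 normalised reads in drug-tolerant cells, against 1535, 1918 and 1786 in parental cells. LTBP3, FSTL1, CRIM1 and LTBP2, which had higher means than NOG, had log2 fold changes of -0.08, -0.12, 0.39 and 0.24 in the authors' deposited table. FSTL3, a follistatin-like activin antagonist, had 364 and 451 normalised reads in drug-tolerant cells, against 309, 513 and 543 in parental cells, so its groups overlapped. With a mean of 436 in the authors' deposited table, against 13.5 for FST, FSTL3 had the higher level of the 2 also per kb, at 172 against 5.32 over all libraries.

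Of the receptor-regulated and common SMADs 0 of 6 tested genes were called, and their log2 fold changes ran from -0.10 to 0.21. SMAD4 had 811 and 818 normalised reads in drug-tolerant A and B, against 912, 820 and 823 in parental A, B and C. SMAD1 had 161 and 181 normalised reads in drug-tolerant cells, against 137, 163 and 154 in parental cells.

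Of the intracellular and membrane inhibitors other than SMAD7 and BAMBI, 0 of 11 tested genes were called. The median log2 fold change was -0.24 and 9 were negative, where 7851 of all 15223 genes were negative. SMAD6, the inhibitory SMAD that acts mainly on the BMP branch, had 123 and 101 normalised reads in drug-tolerant A and B, against 180, 162 and 150 in parental A, B and C. Its log2 fold change was -0.47 ± 0.28 (SE) in the authors' deposited table. Of the 10 tested genes of this list with recovered reads, SMAD7 and BAMBI included, 5 had groups that overlapped. SMAD6, SMAD7, BAMBI and TGIF2 had drug-tolerant values below every parental value and SMURF1 had values above. Of 11218 genes with a mean up to 1000, 17.3% were lower and 18.3% higher without overlap, and SMURF1 has a mean above 1000. PMEPA1, a TGF-β induced membrane protein that holds SMAD2 and SMAD3 back from the receptor, had a mean of 9336 in the authors' deposited table. Its log2 fold change there was -0.54 ± 0.20 (SE), at an unadjusted p of 0.0059 and an adjusted p of 0.274 (DESeq2, authors' deposited table). SMURF1, a ubiquitin ligase that targets SMADs and receptors, had 1216 and 1261 normalised reads in drug-tolerant cells, against 1157, 940 and 931 in parental cells. FKBP1A, STRAP, SKIL, SMURF2 and PPM1A had higher means than SMURF1. Their log2 fold changes were -0.74, -0.15, -0.20, -0.24 and -0.07 in the authors' deposited table.

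Of the BMP-SMAD target genes outside the 9, 0 of 4 tested genes were called. HEY1, a Notch and BMP target, had 42.3 and 40.6 normalised reads in drug-tolerant A and B, against 68.8, 59.0 and 76.0 in parental A, B and C, with -0.57 ± 0.32 (log2 fold change, SE) in the authors' deposited table. MSX1 had 24.7 and 41.8 normalised reads in drug-tolerant cells, against 22.7, 26.5 and 28.1 in parental cells. Of the activin and TGF-β SMAD target genes other than SMAD7, 0 of 11 tested genes were called. The median log2 fold change was -0.20 and 8 were negative, where 7851 of all 15223 genes were negative. TGFBI, a secreted TGF-β target, had a mean of 3827 and -0.10 ± 0.20 (log2 fold change, SE) in the authors' deposited table.

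The E protein genes TCF3, TCF4 and TCF12, whose products the ID proteins bind, had log2 fold changes of 0.16, -0.12 and 0.14 in the authors' deposited table, where 0 of the 3 were called. TCF3 had 1929 and 1993 normalised reads in drug-tolerant A and B, against 1436, 1876 and 1905 in parental A, B and C. Of the 4 proprotein convertases, which cleave the precursors of activins and BMPs, 0 were called. PCSK5 had 1173 and 1171 normalised reads in drug-tolerant A and B, against 659, 386 and 336 in parental A, B and C, and 1.11 ± 0.31 (log2 fold change, SE) in the authors' deposited table, at an adjusted p of 0.0605 (DESeq2). It separated the groups in the same order of libraries as TGFBR3, with parental A the highest of the parental libraries. FURIN had 1346 and 1403 normalised reads in drug-tolerant cells, against 1253, 1664 and 1648 in parental cells.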

How the data were processed

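RNA of PC9 cells was isolated with TriZol and made into 2 drug-tolerant and 3 parental libraries with a stranded mRNA kit, per the labels' protocols. FastQC, STAR, DESeq2 and build hg38 are named in the submitters' processing notes; for versions, counting tool and annotation the sources used here give nothing. Deposited by the authors was 1 table with the columns of a DESeq2 result and no values per library. Its mean level is a signal deposited by the authors, the mean over libraries of reads divided by size factors. The deposited fold changes and their standard errors are log2 values. The deposited score is the fold change over its standard error (Wald), and the deposited p-values and adjusted p-values follow from it.

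The edgeR test was planned for deposited counts, so here the authors' adjusted p under 0.05 is the call. The 9 genes, the lists and the tests were chosen with earlier results of these data known. Named genes were the 9 genes, called list genes and genes among the up to 6 of the highest mean with an adjusted p in each list. Not all of those genes are named in every list, and the choice among them was made with their values known. FSTL3, SMURF1, INHA, MSX1, INHBC, INHBE, ID4 and TGIF2 fall outside this rule and were chosen after their values were seen. List genes without a row are given as a number.

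Reads per library were recovered by finding whole reads that give the deposited mean. Each of the 12705 genes below a mean of 10 had exactly 1 solution, with a largest residual of 5.2e-10 at a tolerance of 1.5e-09. Of 1500 such genes checked, 1478 also gave the deposited fold change within rounding. For higher genes the reads also had to give the deposited fold change and standard error under the authors' DESeq2 model, recomputed, which resolved 10766 of 11089 tested genes with a mean of 10 to 1000 and 20 of 20 list genes with a mean of 1000 to 2600. Genes simulated from known reads were resolved rightly in 282 of 300 cases with a mean of 26 to 1000 and in 40 of 40 above that, and wrongly in 0. They were drawn from the same fitted model that resolves the reads, so they cannot show errors of that model. For INHBA, INHBB and ID1, 1736375, 1109144 and 2576340 sets of reads were tested. Reads in 3 libraries pulled the fold change down and in 2 pulled it up, which matches 3 parental and 2 drug-tolerant libraries, so positive values are higher in drug-tolerant cells. Log2 ratios of recovered reads used a pseudocount of 0.5 normalised reads. limma 3.58.1 in R 4.3.3 was run on log2 of normalised reads plus 0.5 with a mean-variance trend and Benjamini-Hochberg adjustment. Positions and transcript lengths are from GENCODE on GRCh38, and promoter sequences from RefSeq on GRCh38.p14. Reads per library, estimated from size factors and the summed deposited means, ran from 14.2 to 21.4 M. Counting error alone limits genes with few reads, such as FST and ID2.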

Additional observations from a re-analysis of the deposited data

How the results depend on the processing

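At an adjusted p under 0.01, 1 of the 9 genes stayed called (INHBA), where 0.256% of all 15223 genes were called. With the Wald score centred at its median and scaled by a robust SD, 0 were called, and 1 of all 15223 genes. With the length and GC trend removed, 1 was called (INHBA), where 0.546% of all 12461 genes tested were called. With limma on the recovered reads, an alternative chosen after seeing the data, 0 of the 9 and 0 of all 11238 genes were called. With 1 library left out in turn, limma called between 0 and 8 of the 9 genes and between 0 and 33 of the 61 other pathway genes with recovered reads; the highest counts were those without parental A, when it called 7607 of 11238 genes, and leaving out any other library gave 0. The cause was not tested. With no filter on mean level, 2 genes were called, where 0.218% of all genes were, and ID3 had an adjusted p of 0.0867. A minimum mean of 50 left 3 calls, where 0.722% of all genes tested were called. A log2 fold change of at least 1 also left 3, where 0.493% of all genes were called. The other pathway genes had 0 calls under every alternative with all libraries. Of 106 values of single genes under these alternatives, 101 kept the deposited sign. The others were ID2, at -0.72 with limma and, with 1 library left out, -2.53 without drug-tolerant B, -1.24, -0.35 and -0.56 without parental A, B and C, and 1.09 without drug-tolerant A, which kept the sign. Leaving out single libraries moved the log2 ratio of INHBA between -1.58 and -1.32. No paired analysis was possible because the recovered libraries could not be matched to replicate numbers. Refits with edgeR and DESeq2 were not run; the recovered reads were tested with limma instead. Fold changes of FST and ID2 rest on few reads.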
